A study of Mus musculus with 4 samples.

Results

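The voltage-gated calcium channel alpha1 genes form the pores through which neurons admit calcium when they are depolarized. The 8 members Cacna1a, Cacna1b, Cacna1c, Cacna1d, Cacna1e, Cacna1g, Cacna1h and Cacna1i were taken by name and not by a value, and all 8 were found among the 12700 genes counted in these brain libraries. Cacna1f and Cacna1s, the other alpha1 genes, were not in the table. RNA was sequenced from Ids-ko mice, in which Ids, the gene of the lysosomal enzyme iduronate 2-sulfatase, is disrupted as a model of Hunter syndrome, and from wild type (wt) mice. All were C57BL/6 and 9 months old, and the Ids-ko genotype is given by the labels as Ids-/-. The libraries are CxH (cerebral cortex, Ids-ko), CxWT (cerebral cortex, wt), MH (midbrain/diencephalon/hippocampus, Ids-ko) and MWT (midbrain/diencephalon/hippocampus, wt), where M also held the striatum by the study's dissection. Each is 1 library from the pooled RNA of 7 mice, and since each brain was divided into both areas, the Cx and M pools of a genotype share mice. Hence every test below compares libraries and not conditions, and every ± is a standard error that covers counting error only.

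Each alpha1 protein folds into homologous repeats around a single pore, and a few pore residues decide that calcium passes. High-voltage-activated channels need strong depolarization. Among them, the P/Q type (Cacna1a) and the N type (Cacna1b) drive transmitter release at nerve terminals, the L type (Cacna1c and Cacna1d) couples activity to gene expression, and the R type (Cacna1e) serves dendrites and terminals. The low-voltage-activated T type (Cacna1g, Cacna1h and Cacna1i) opens near the resting potential and supports burst firing, for which Cacna1g is best known in relay neurons of the thalamus and Cacna1i in its reticular nucleus.

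The pore sequence that separates the high-voltage-activated types from the T type is shown because the largest differences between libraries lay within the T type. Each line gives 30 coding bases of the pore loop of the third repeat, 5′ to 3′ on the strand of the gene, from the longest protein-coding transcript of the annotation (GENCODE vM1, genome build NCBIM37, equal to mm9). The capitals mark the codon of the selectivity residue. It encodes glutamate in the 5 high-voltage-activated members, which carry glutamate in all 4 repeats, and aspartate in the 3 T-type members, which carry aspartate in the third and last repeats.
Cacna1a: acagtgtccacaggaGAGggctggccacag
Cacna1b: acagtgtccacgggaGAGgggtggcccatg
Cacna1c: accgtctccaccttcGAAgggtggccagag
Cacna1d: acagtctcaacttttGAGggctggcccgcg
Cacna1e: acagtctctacagggGAAggatggcctcag
Cacna1g: gtgctggcctccaagGATggctgggttgac
Cacna1h: gtgctgtcatccaagGATggctgggtaaac
Cacna1i: gtcttggcctccaagGATggctgggtgaac
In the T-type genes the stretch lies within 1 coding exon, at chr11:94287773-94287802 on the minus strand for Cacna1g, chr17:25520441-25520470 on the minus strand for Cacna1h and chr15:80207222-80207251 on the plus strand for Cacna1i. In the high-voltage-activated genes it runs across an exon junction, so that its ends enclose an intron. These ends are chr8:87105222-87107458 (plus strand) for Cacna1a, chr2:24506148-24506629 (minus) for Cacna1b, chr6:118604473-118606159 (minus) for Cacna1c, chr14:30912429-30913911 (minus) for Cacna1d and chr1:156291132-156292030 (minus) for Cacna1e. The counts are per gene and do not resolve these exons or their splice forms.

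The libraries held between 16380080 (MWT) and 23475080 (CxH) reads on genes, and 3 reads correspond to between 0.0779 and 0.104 reads per 1000000 aligned reads (RPM), the scale of the levels below. Libraries went against their labels. Ids, the disrupted gene, had 135 RPM in CxH and 354 in CxWT, but 368 in the library labelled MH and 155 in the library labelled MWT. Markers of cortical excitatory neurons summed to 2080 and 1901 RPM in CxH and MH and to 395 and 339 in CxWT and MWT. The reverse held for thalamus markers (179 and 185 against 761 and 708 RPM), for midbrain and brainstem markers (15.3 and 16.3 against 214 and 183) and for hypothalamus markers (8.65 and 6.77 against 81.1 and 62.6). Striatum markers were higher in CxH and MH (1223 and 1043 RPM against 515 and 507). Hippocampus markers summed to between 204 and 248 RPM in every library. The median log2 ratio of the 7 hippocampus genes was nonetheless 0.87 in MH vs. MWT, and 0.24 in CxH vs. CxWT. By these markers the library labelled MH resembled CxH, and CxWT resembled MWT. Group names below are those of the labels, and all 6 pairs of libraries are given. In such bulk RNA, fewer cells of a type and less RNA per cell cannot be told apart.

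The ratios between libraries also followed the GC content of the transcripts. Among the 10725 genes that reached 100 reads in each of the libraries, the Spearman correlation of GC content with the log2 ratio was 0.461 in CxH vs. CxWT, 0.486 in MH vs. MWT, 0.582 in CxH vs. MH, 0.628 in CxWT vs. MWT, 0.686 in CxH vs. MWT and, the lowest, 0.163 in MH vs. CxWT. These are across genes, which share the libraries and are not replicates. The alpha1 transcripts are GC-rich, from 49.1% for Cacna1d to 60.0% for Cacna1h, and 6 of 8 lay above the median of 50.7% of the table. Ratios corrected for GC content and transcript length are therefore given beside the calls of members that the correction ends.

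Cacna1a, the P/Q-type pore on chromosome 8 from 86912339 to 87164145, had 87.1 RPM in CxH and 68.4 in CxWT, and 80.6 in MH and 46.8 in MWT. Cacna1b, the N-type pore on chromosome 2 from 24459407 to 24618672, had 77.0, 81.4, 87.8 and 50.6 RPM in the same order. The presynaptic types were thus lowest in MWT, and Cacna1b differed little among the other libraries.

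Of the L-type pores, Cacna1c (chromosome 6 from 118542314 to 119146249) had 38.5 and 38.4 RPM in the Cx libraries CxH and CxWT, and 40.9 and 28.1 in MH and MWT. Cacna1d, which opens at less depolarized potentials than Cacna1c and lies on chromosome 14 from 30853135 to 31304342, had 39.4, 37.7, 50.9 and 30.9 RPM. Both had fewer RPM than every other member in CxH, CxWT and MH, while in MWT Cacna1h lay between them at 29.3 RPM. Cacna1e, the R-type pore on chromosome 1 from 156239649 to 156573049, had 144, 102, 166 and 85.9 RPM, higher in CxH and MH than in CxWT and MWT.

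Among the T-type pores, Cacna1g (chromosome 11 from 94269705 to 94335414) had 65.1 RPM in CxH and 127 in CxWT, and 74.8 in MH and 68.7 in MWT. It was the only member with its highest level in CxWT and the only one without its lowest level in MWT. Cacna1h (chromosome 17 from 25511230 to 25570728) had 70.3, 52.4, 73.5 and 29.3 RPM, and Cacna1i (chromosome 15 from 80117668 to 80228709) 91.2, 59.9, 76.1 and 41.9 RPM. Unlike Cacna1g, these genes had CxH and MH above CxWT. Over part of their exons Cacna1a, Cacna1d and Cacna1h overlap a gene of the other strand (Gm16183 over 435 of 11418 exonic bases, Chdh over 518 of 9347 and Tpsg1 over 158 of 9788). Reads of these stretches are uncertain, since the strand setting of the counting was not given in the sources used here.

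**Figure D1:**
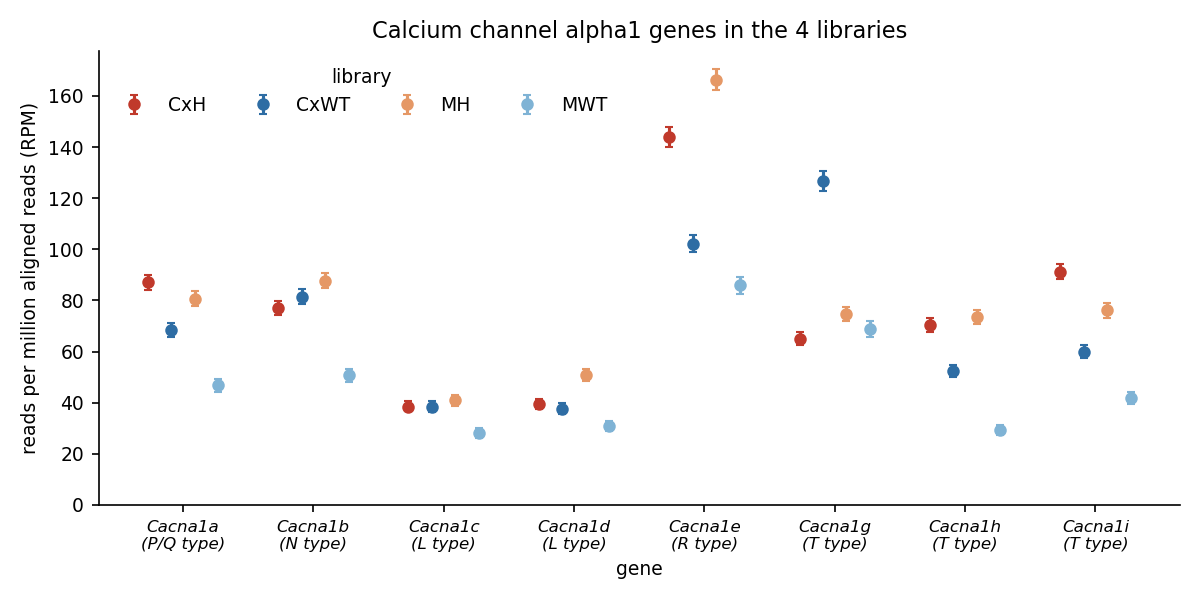
Level of each alpha1 gene, in reads per 1000000 aligned reads (RPM, linear axis from 0), in each of the 4 libraries; bars are 95% exact intervals of the read count and cover counting error only. Cacna1g was highest in CxWT at 127 RPM, while the other members had their lowest level in MWT.

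Compared between genes as RPM per kilobase of transcript (RPKM), the most abundant pore was Cacna1e in CxH (11.3 RPKM) and MH (13.1 RPKM), but Cacna1g in CxWT (15.1 RPKM) and MWT (8.20 RPKM). In CxH the order ran Cacna1e, Cacna1a (11.0), Cacna1i (9.33), Cacna1h (8.54), Cacna1b (7.91), Cacna1g (7.76), Cacna1c (5.08) and Cacna1d (4.30 RPKM). Cacna1e and Cacna1a, and Cacna1b and Cacna1g, did not differ beyond counting error there.

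In CxWT, Cacna1g was followed by Cacna1a (8.63), Cacna1b (8.37), Cacna1e (8.05), Cacna1h (6.36), Cacna1i (6.12), Cacna1c (5.06) and Cacna1d (4.11 RPKM). The neighbours Cacna1a and Cacna1b, Cacna1b and Cacna1e, and Cacna1h and Cacna1i lay within counting error of each other. In MH the order was Cacna1e, Cacna1a (10.2), Cacna1b (9.02), Cacna1h (8.93), Cacna1g (8.92), Cacna1i (7.78), Cacna1d (5.55) and Cacna1c (5.40 RPKM), with Cacna1b, Cacna1h and Cacna1g not told apart, nor Cacna1d from Cacna1c. In MWT, Cacna1g was followed by Cacna1e (6.76), Cacna1a (5.91), Cacna1b (5.20), Cacna1i (4.28), Cacna1c (3.71), Cacna1h (3.56) and Cacna1d (3.37 RPKM), where Cacna1h did not differ beyond counting error from Cacna1c or Cacna1d. Cacna1g thus led the order in CxWT and MWT but not in CxH or MH.

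Shares of the summed RPKM of the 8 genes do not depend on the library total. The T type made up the largest share in every library, 39.3% ± 0.32 in CxH and 44.6% ± 0.37 in CxWT, and 37.2% ± 0.32 in MH and 39.1% ± 0.47 in MWT. Without division by length these shares were 37.0%, 42.1%, 34.5% and 36.6%. Cacna1g alone held 11.9% and 13.0% in CxH and MH, but 24.5% and 20.0% in CxWT and MWT. The other T-type genes together had 27.4% and 24.3% in CxH and MH, and 20.2% and 19.1% in CxWT and MWT. The composition of the T type thus changed more than its sum. Shares are parts of a whole, so a lower share of Cacna1g raises those of all other members. They are also not corrected for GC content. Corrected for GC content and length, the log2 ratios of Cacna1h and Cacna1i were 0.090 and 0.28 in CxH vs. CxWT. In MH vs. MWT they were 0.48 and 0.021.

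The shares of the high-voltage-activated types moved less than that of Cacna1g. The R type had 17.4%, 13.0%, 19.0% and 16.5% of the summed level in CxH, CxWT, MH and MWT. The P/Q type had 16.8%, 14.0%, 14.8% and 14.4%, the N type 12.1%, 13.5%, 13.1% and 12.7%, and the L type 14.4%, 14.8%, 15.9% and 17.3%. Within the L type, Cacna1c held between 49.3% (MH) and 55.2% (CxWT) of the level. The summed level itself was 65.2, 61.8, 68.8 and 41.0 RPKM, lowest in MWT.

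**Figure D2:**
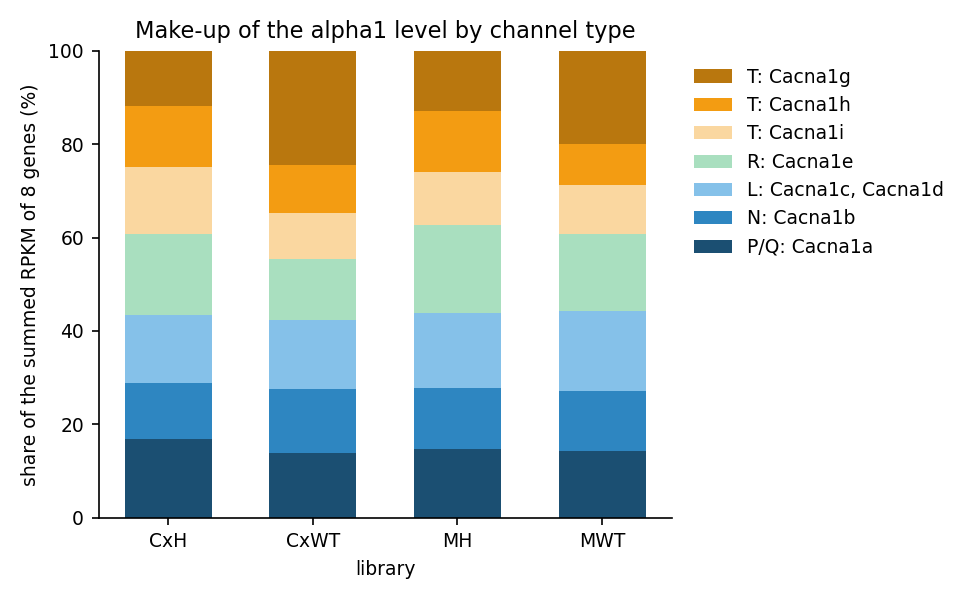
Share in percent of the summed RPKM of the 8 alpha1 genes held by each channel type in each library, with the 3 T-type genes drawn separately. Cacna1g held 11.9% in CxH and 13.0% in MH, against 24.5% in CxWT and 20.0% in MWT.

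Within the T type, Cacna1g made up 30.3% ± 0.50 of the RPKM in CxH and 34.8% ± 0.53 in MH, and 54.8% ± 0.55 in CxWT and 51.1% ± 0.79 in MWT. Set against Cacna1h in the same library, its log2 ratio of RPKM was -0.14 in CxH and -0.0010 in MH, near parity, but 1.25 in CxWT and 1.20 in MWT. These transcripts are close in GC content (58.1% and 60.0%) and in length (8383 and 8230 bases). The fitted GC and length trend at Cacna1g and Cacna1h was 0.29 and 0.33 in CxH vs. CxWT and 0.72 and 0.85 in MH vs. MWT.

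The ratio of Cacna1g to Cacna1h was 2.61-fold lower in CxH than in CxWT (log2 difference -1.39 ± 0.057) and 2.30-fold lower in MH than in MWT (-1.20 ± 0.071). It was 2.53-fold lower in CxH than in MWT (-1.34 ± 0.071) and 2.38-fold lower in MH than in CxWT (-1.25 ± 0.056). Between CxH and MH the log2 difference was only -0.14 ± 0.056, and between CxWT and MWT 0.047 ± 0.072, within counting error. By this ratio CxH lay near MH and CxWT near MWT. Other members as denominator gave wider gaps within these pairs. Against Cacna1i, the log2 ratio of Cacna1g was -0.26 in CxH and 0.20 in MH, and 1.30 in CxWT and 0.94 in MWT. Against Cacna1a it was -0.50 and -0.19, and 0.81 and 0.47, in the same order. Ids had fewer reads in CxH and MWT than in CxWT and MH. The relation of these ratios to Ids or to the area markers was not tested.

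The comparison with Cacna1e depended on the correction. The log2 ratio of Cacna1g to Cacna1e was -0.55 in CxH and -0.55 in MH, and 0.91 in CxWT and 0.28 in MWT. The latter libraries differed by 0.63 ± 0.055. Cacna1e has a lower GC content (49.2%) than Cacna1g, and with GC content and length corrected the difference was 0.25 for CxWT minus MWT and -0.21 for CxH minus MH. It was -1.73 for CxH minus CxWT and -1.27 for MH minus MWT.

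**Figure D3:**
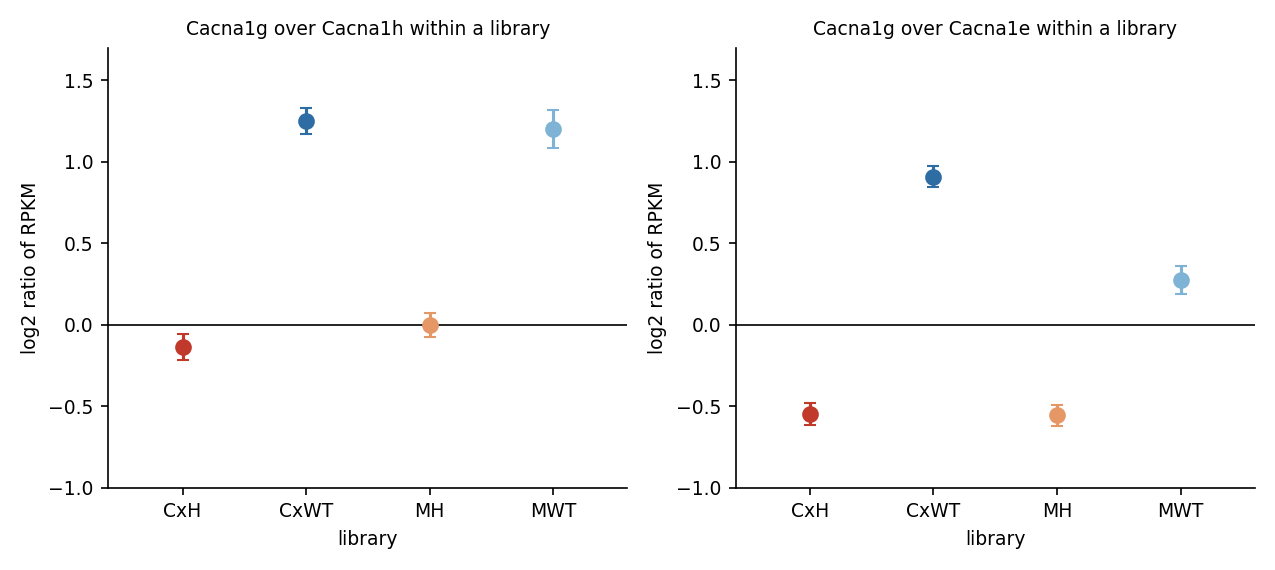
Log2 ratio of the RPKM of Cacna1g to that of Cacna1h (left) and of Cacna1e (right) within each of the 4 libraries; bars are 95% intervals from counting error. Against Cacna1h the ratio was -0.14 in CxH and -0.0010 in MH, and 1.25 in CxWT and 1.20 in MWT.

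By its labels, CxH vs. CxWT asked how the Ids-ko cortex differed from the wt cortex, although CxWT had the thalamus and midbrain markers given above. Calls required a p under 0.05 in the Poisson likelihood ratio test of the reads, and a log2 ratio no smaller in size than 0.7, by which 20.9% of all genes were called (9.46% up and 11.5% down). Of the 8 members, 1 was called, Cacna1g, with a log2 ratio of -0.96 ± 0.036. With GC content and length corrected it was -1.25 and still called. The other T-type genes had positive ratios short of the threshold, 0.61 ± 0.040 for Cacna1i and 0.42 ± 0.044 for Cacna1h.

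In the same pair Cacna1e was at 0.49 ± 0.031 and Cacna1a at 0.35 ± 0.039. Ratios near 0 were found for Cacna1b (-0.081 ± 0.038), Cacna1c (0.0045 ± 0.055) and Cacna1d (0.065 ± 0.055). The median over the members was 0.21, against -0.093 over all genes. Beside the Cacna1g call, thalamus markers had a median log2 ratio of -2.24, with 12 of 14 called down and 1 up, and cortical excitatory neuron markers one of 2.92, with 12 of 15 called up. Their part in the result was not tested.

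By its labels, MH vs. MWT asked the same of the M area, although the library labelled MH had the cortical markers of CxH and Ids ran against the genotypes. In this pair 25.0% of all genes were called (12.3% up and 12.7% down). Here 6 of the 8 members were called, all up: Cacna1h at 1.32 ± 0.057, Cacna1e at 0.95 ± 0.034, Cacna1i at 0.86 ± 0.049, Cacna1b at 0.79 ± 0.045, Cacna1a at 0.78 ± 0.047 and Cacna1d at 0.72 ± 0.059. Scaled by column totals, Cacna1d was at 0.66 and not called, and the exact test with an assumed coefficient of variation of 0.2 between pools called only Cacna1h, Cacna1e and Cacna1i. Cacna1c had 0.54 ± 0.063 and Cacna1g 0.12 ± 0.042, below the threshold. The median over the members was 0.79, against -0.066 over all genes.

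None of these 6 calls remained after the GC and length correction. The corrected log2 ratios were 0.48 for Cacna1h, 0.67 for Cacna1e, 0.021 for Cacna1i, 0.37 for Cacna1b, 0.061 for Cacna1a and 0.52 for Cacna1d, with a median over the 8 members of 0.28. Cacna1g turned to -0.59, the same direction as in CxH vs. CxWT. Directions in this pair follow the labels, while Ids had a log2 ratio of 1.24 ± 0.025 there, the reverse of the labelled genotypes. Thalamus markers had a median of -1.73 (11 of 14 called down and 1 up) and cortical excitatory neuron markers 3.34 (12 of 15 called up), and their part in the result was not tested.

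The difference between the labelled areas in the Ids-ko to wt log2 ratio, M minus Cx, was 1.08 ± 0.056 for Cacna1g, 0.90 ± 0.072 for Cacna1h and 0.87 ± 0.059 for Cacna1b. For Cacna1i it was 0.25 ± 0.064, and as labelled and scaled by aligned reads all 8 differences were above 0. With GC content and length corrected, a check added after the data were seen, 7 were above 0. They were then 0.65 for Cacna1g, 0.59 for Cacna1b and 0.39 for Cacna1h, near 0 for Cacna1a (0.0033, from 0.43), and Cacna1i turned to -0.26. The signs rest on the labelled direction of MH vs. MWT, against which Ids runs. With the M ratio read as MWT over MH, the difference was 0.84 for Cacna1g and below 0 for the other 7 members, from -0.55 (Cacna1c) to -1.75 (Cacna1h). This turned value sets CxWT and MWT against CxH and MH, the split by area markers. It is therefore not a difference between areas in a genotype ratio. With 1 library per condition no test of the M minus Cx difference against the spread between pools could be made.

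CxH vs. MH compared the labelled areas within the libraries labelled Ids-ko, although both had cortical markers and Ids was itself called down in this pair (log2 ratio -1.44), with 3.50% of all genes called (2.43% up and 1.06% down). None of the 8 members passed the thresholds, and their log2 ratios ran from -0.37 (Cacna1d) to 0.26 (Cacna1i). Their median was -0.14, and that of all genes 0.015. Cortical excitatory neuron markers had a median of 0.13 in this pair and thalamus markers -0.10. Of the 14 thalamus markers 2 were called down, Slc17a6 at -1.05 and Lhx9 at -0.81, and after the correction Slc17a6 alone (-0.83).

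In CxWT vs. MWT, the comparison of the labelled areas between the libraries labelled wt, both with thalamus and midbrain markers, Ids was called up (1.19) and 7.54% of all genes were called (5.43% up and 2.11% down). Of the members 2 were called, both up, Cacna1g at 0.88 ± 0.039 and Cacna1h at 0.84 ± 0.060. All the others had ratios above 0, from 0.25 for Cacna1e to 0.69 for Cacna1b. After the GC and length correction Cacna1g was at 0.35 and Cacna1h at 0.19, and neither was called. Thalamus markers had a median of 0.29 and cortical excitatory neuron markers of 0.23. Hypothalamus markers had one of 0.62, with 2 of 8 called up. Their part in the result was not tested.

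**Figure D4:**
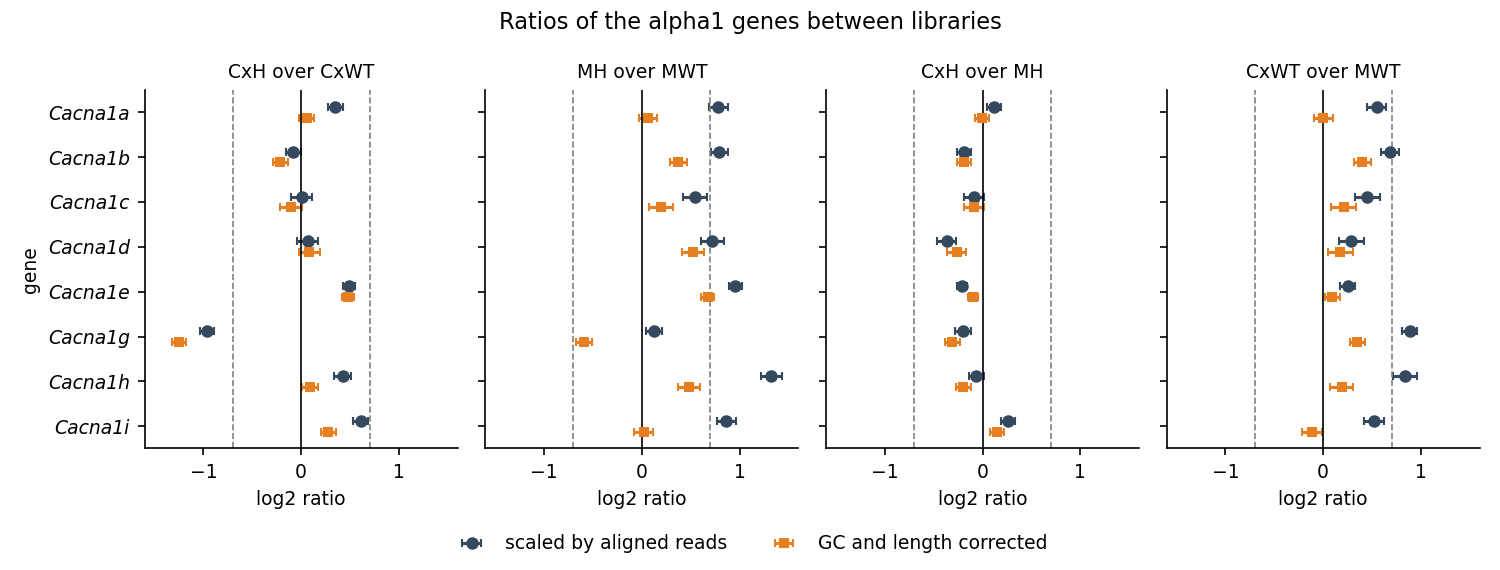
Log2 ratios of the 8 alpha1 genes in the 4 labelled comparisons, scaled by aligned reads (circles) and after correction for GC content and length (squares); bars are 95% intervals from counting error and dashed lines mark a log2 ratio of 0.7 in size. In MH over MWT 6 circles pass the line and no square does, while Cacna1g in CxH over CxWT passes it both ways (-0.96 and -1.25).

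The remaining pairs cross both labels and share libraries with those above. In CxH vs. MWT 30.7% of all genes were called (15.6% up and 15.1% down), and of the members Cacna1h (1.26), Cacna1i (1.12), Cacna1a (0.90) and Cacna1e (0.74) were called up. Cacna1e was not called with column totals (0.64) or by the exact test with an assumed coefficient of variation of 0.2. After the correction those 4 calls were lost, and Cacna1g, at -0.078 before, was called down at -0.90. In MH vs. CxWT 15.3% were called (6.41% up and 8.89% down), with Cacna1e up at 0.70 ± 0.031 and Cacna1g down at -0.76 ± 0.035. Corrected, Cacna1g was at -0.95 and still called, and Cacna1e at 0.57 was not. With TMM or DESeq2 factors as scaling Cacna1g was at -0.65 and lost its call, and an exact test that assumed a coefficient of variation of 0.2 between pools called neither gene. MH vs. CxWT had the weakest trend with GC content of all 6 pairs.

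Side by side, the corrected log2 ratios of Cacna1g were -1.25 in CxH vs. CxWT, -0.59 in MH vs. MWT, -0.90 between CxH and MWT and -0.95 between MH and CxWT. Those of Cacna1e were 0.48, 0.67, 0.57 and 0.57 in the same pairs. The comparisons share libraries, so these values are not independent of each other. Within the like-marked pairs, Cacna1g had -0.31 between CxH and MH and 0.35 between CxWT and MWT, and Cacna1e -0.098 and 0.093.

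For each member the genes of nearest profile were sought by the Euclidean distance of log2 RPM centred over the 4 libraries. Cacna1g stood apart from the other members, at distances of 0.76 to 1.30, while the others lay 0.20 to 0.66 from each other. Its nearest genes were 5031439G07Rik (126, 232, 135 and 127 RPM in the order CxH, CxWT, MH, MWT, at a distance of 0.075), Tmem196 and Cercam. The nearest of Cacna1e were Prickle1, Trim9 and Dcaf6, of which Trim9 had 211, 141, 227 and 120 RPM. Those of Cacna1h were Arhgap39, Wdr90 and Trim46, and those of Cacna1i Asb6, Dscaml1 and Slc25a22. For the remaining members they were Kdm4b, Cul9 and Fam160b2 (Cacna1a), Col4a2, Prpf40b and Sppl2b (Cacna1b), Nup210, Gtpbp3 and Ep400 (Cacna1c), and Dennd11, Emsy and Aox1 (Cacna1d). The profiles were not corrected for GC content. The 3 nearest genes had 56.7% to 59.8% GC for Cacna1a, 57.8% to 59.0% for Cacna1h and 56.3% to 58.8% for Cacna1i. For Cacna1g they had 51.5% to 56.2%. The part of GC content in these likenesses was not tested. With 4 libraries many genes share a profile, and likeness here is a description only.

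The high-voltage-activated pores act with auxiliary subunits. Beta subunits bind the pore inside the cell and bring it to the membrane, and of the 4 genes Cacnb1 and Cacnb3 were called up in both labelled genotype pairs, where 9.46% (CxH vs. CxWT) and 12.3% (MH vs. MWT) of all genes were. Cacnb3 had 276 RPM in CxH and 81.3 in CxWT, and 198 in MH and 69.0 in MWT. Its log2 ratio was 1.76 in CxH vs. CxWT and 1.52 in MH vs. MWT. It was also the most abundant beta subunit per length, at 97.8 RPKM in CxH and 24.5 in MWT. Cacnb1 had 59.2, 25.7, 48.8 and 11.8 RPM and ratios of 1.20 and 2.05. Under the same correction, a check added once the data had been seen, both were still called, at 1.44 and 0.86 for Cacnb3 and 0.91 and 1.45 for Cacnb1. Cacnb2 (-0.54 and -0.52) and Cacnb4 (-0.018 and 0.22) were not called. The medians of the list were 0.59 and 0.87, against -0.093 and -0.066 over all genes.

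Of the alpha2delta subunits, extracellular partners that raise the number of channels at the surface, 3 of 4 were in the table. Cacna2d2 had 36.8, 118, 41.8 and 79.0 RPM and was called down in both pairs, at -1.68 and -0.92, and Cacna2d3 had 38.9, 21.1, 40.1 and 23.6 RPM and was called up, at 0.88 and 0.77. Cacna2d2 thus had the order of CxH and MH below CxWT and MWT, and Cacna2d3 the opposite. Both calls held in both pairs after the correction (-1.88 and -1.39 for Cacna2d2, 0.94 and 0.80 for Cacna2d3). Cacna2d1, the most abundant in MWT per length at 14.7 RPKM, was at -0.080 and -0.11, and the medians of the list were -0.080 and -0.11.

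The gamma subunit family mostly comprises proteins that also accompany AMPA receptors, and 6 of its 8 genes were in the table. Cacng3 was called up in both pairs (1.63 and 1.13) and Cacng5 down in both (-1.36 and -1.34), and Cacng8 was called up in MH vs. MWT alone of the genotype pairs (0.53 and 2.38), a difference that was not tested. Cacng8 rested on 87 reads in MWT. These calls held after the correction, and Cacng4, at -0.59 in MH vs. MWT before it, was called down at -0.83. Cacng7 was the most abundant per length, at 50.4, 46.7, 44.9 and 29.9 RPKM. The medians of the list were 0.10 and 0.59. In CxH vs. MH, where 3.50% of all genes were called, no gene of the beta, alpha2delta or gamma lists was.

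**Figure D5:**
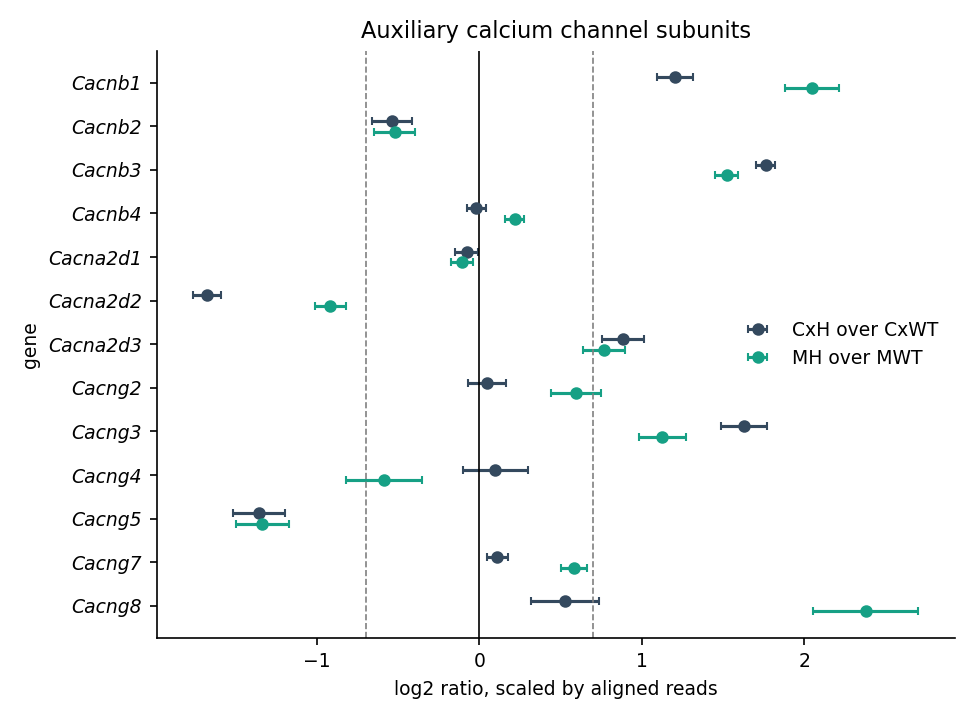
Log2 ratios, scaled by aligned reads, of the beta, alpha2delta and gamma subunit genes in CxH over CxWT and MH over MWT; bars are 95% intervals from counting error and dashed lines mark a log2 ratio of 0.7 in size. Cacnb1, Cacnb3, Cacna2d3 and Cacng3 lie above the upper line in both pairs and Cacna2d2 and Cacng5 below the lower line in both.

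Of 13 regulators that bind or modify the pores, 11 were in the table. In CxH vs. CxWT 3 were called up and 2 down (9.46% and 11.5% over all genes), and in MH vs. MWT 5 up and 2 down (12.3% and 12.7%), with medians of 0.44 and 0.61. Called up in both were Cabp1, a calmodulin-like calcium sensor (1.73 and 2.45), Stac2, an adaptor that slows inactivation of L-type channels (0.98 and 1.10), and Nedd4l, a ubiquitin ligase (0.79 and 0.76). Rrad, a small GTPase that inhibits high-voltage-activated channels (-0.71 and -0.86), and Stac (-1.34 and -1.27) were called down in both. Rem2, on the same list, was at 0.56 in CxH vs. CxWT and not called. In MH vs. MWT it was called up at 1.36, and still at 1.21 after the correction. In MH vs. MWT the correction ended the calls of Stac2 (0.64) and of the calmodulin gene Calm3 (from 0.87 to 0.48), and added those of the calmodulin gene Calm2 (from 0.35 to 0.96) and of Gem, a small GTPase (from 0.61 to 0.96).

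Of 14 active zone and release genes, which place P/Q- and N-type channels beside synaptic vesicles, 13 were in the table. In CxH vs. CxWT 6 were called up and 0 down, against 9.46% and 11.5% of all genes, and in MH vs. MWT 7 up and 0 down, against 12.3% and 12.7%. The medians were 0.67 and 0.78. Both pairs shared Stx1a (2.43 and 2.74), a vesicle fusion protein that binds the channels, with the scaffold genes Bsn (1.23 and 1.76), Rims1 (1.19 and 1.61), Erc2 (0.74 and 0.78) and Ppfia3 (1.18 and 1.49), and the priming factor Unc13a (0.82 and 1.42). Corrected, Unc13a was at 0.59 in CxH vs. CxWT and not called. In CxH vs. MH, with 3.50% of all genes called, none of the list was.

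Calcium-activated potassium channels, which open on the calcium that these pores admit, had 1 of 5 genes called up and 1 down in CxH vs. CxWT, where 9.46% and 11.5% of all genes were called, and 3 up in MH vs. MWT, where 12.3% were called up. Corrected, 2 of those 3 were still called, and Kcnn1, a small-conductance channel, went from 0.89 to 0.43. Kcnmb4, a beta subunit of the large-conductance channel, was up in both (0.83 and 2.31), and Kcnn3, of the same family as Kcnn1, was called down in CxH vs. CxWT alone of the genotype pairs (-0.84, and 0.0045 in MH vs. MWT), a difference that was not tested. Oligodendrocyte markers summed to 5046, 9539, 5248 and 7692 RPM in the order CxH, CxWT, MH, MWT, and general neuron markers lay between 2399 and 2711 RPM.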

How the data were processed

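The authors pooled RNA of 7 mice per condition, sequenced 1 library each on a SOLiD 3 Plus instrument, aligned reads with PASS 2.10 to NCBI37/mm9 with at most 2 mismatches, and deposited counts of reads on single genes, keeping genes with over 50% of their length covered, without normalization. The gene annotation behind the counts is not given in the sources used here. Of 12700 Entrez IDs, 12690 matched a RefSeq symbol (GRCm38.p6, used for names only) and 12444 a gene of GENCODE vM1, of which 12252 had a protein-coding transcript. Its GC content and length were taken from the longest one. All sequences come from that annotation and its genome. There were 0 unused columns of samples.

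Counts were scaled by the aligned reads that the study lists. A count of 0 was set to 1 for ratios. The reads of each gene were compared by the Poisson likelihood ratio test, with the thresholds of the study, and no p-value is printed because conditions had no replicates. Reads on genes were 23475080, 20266394, 22057807 and 16380080 in CxH, CxWT, MH and MWT. Standard errors and exact Poisson intervals of the counts cover counting error only. Alternatives were column totals, TMM factors (edgeR) or DESeq2 size factors as scaling, at least 100 reads in every library, a log2 threshold of 1, the edgeR exact test with an assumed coefficient of variation of 0.2, 0.5 added to each count, and a correction for GC content and length fitted over genes with at least 100 reads. Its use on the auxiliary gene lists and on differences between ratios, the reading of the M ratio as MWT over MH, and an additive fit over the 4 libraries were added after the data were seen.

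Genes named are the 8 members, Ids, the 3 nearest genes of each member, and, of fixed lists, those called in both labelled genotype pairs and the most abundant per length. Genes overlapping a member's exons are named too. Other list genes (such as Cacng8, Kcnn1, Kcnn3, Calm2, Calm3, Gem, Rem2, Slc17a6 and Lhx9) were named after their values were seen. The members and lists were chosen with earlier results of these data known. Lists of marker genes not mentioned in the report (cerebellum, astrocyte, GABA neuron, oligodendrocyte precursor, microglia and endothelial markers) have their medians in the closing section. Software was edgeR 4.0.16 and DESeq2 1.42.0 under R 4.3.3, and scipy 1.17.1, numpy 2.4.6, pandas 2.3.3 and matplotlib 3.10.9 under Python 3.11.15, and the steps were tested on simulated data.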

Additional observations from a re-analysis of the deposited data

Results flagged for a closer look

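By the labels, the Ids-ko to wt log2 ratio had opposite signs in the areas for Cacna1b (-0.081 in Cx and 0.79 in M, a difference of 0.87) and for Cacna1g (-0.96 and 0.12, a difference of 1.08). With GC content and length corrected, Cacna1g had the same sign in both (-1.25 and -0.59, a difference of 0.65). Cacna1b had opposite signs (-0.21 and 0.37), although its Cx ratio was 0.013 with TMM and 0.0063 with DESeq2 factors, which ended the opposite sign. Cacna1c took opposite signs under the correction (-0.10 in Cx and 0.19 in M). Read as MWT over MH, the M ratio takes the direction that Ids has in Cx. It then had the sign of the Cx ratio for Cacna1b (-0.79) and Cacna1g (-0.12), and the opposite sign for the other 6 members. MWT and MH carry different area markers, so this reading does not give a genotype ratio within an area. The Cx to M log2 ratio had opposite signs in the genotypes for 6 members. It was below 0 in Ids-ko and above 0 in wt for Cacna1b (wt minus Ids-ko 0.87), Cacna1c (0.54), Cacna1d (0.66), Cacna1e (0.46), Cacna1g (1.08) and Cacna1h (0.90). Corrected, the signs were opposite for all 8 members, by as little as 0.0033 for Cacna1a, and the differences were 0.59 for Cacna1b, 0.30 for Cacna1c, 0.44 for Cacna1d, 0.19 for Cacna1e, 0.39 for Cacna1h and -0.26 for Cacna1i. With 1 library per condition none of these differences was tested. The area difference of the genotype ratio and the genotype difference of the area ratio are the same quantity, so Cacna1b and Cacna1g appear under both.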

How the results depend on the processing

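The labelled areas were paired through their shared mice in an edgeR quasi-likelihood fit over the 4 libraries, added after the data were seen, with the mouse pool as replicate block and 1 residual degree of freedom. It called 0 genes, and so no member, between labelled Cx and M at an adjusted p of 0.05 (615 genes at an unadjusted p of 0.05), and without the block also 0 (7 unadjusted). The labelled genotype contrast takes the 2 libraries of 1 mouse pool as replicates, so it compares pools, and it cannot be told apart from the split by area markers (CxH and MH against CxWT and MWT). Ids runs against it in M. It called 18.7% of all genes and 3 members up (Cacna1e, Cacna1h and Cacna1i), with no GC correction, and without the area term 21.0% and also 3. At a log2 threshold of 1 the members called fell to 0 in CxH vs. CxWT, 1 in MH vs. MWT, 0 in CxWT vs. MWT, 2 between CxH and MWT and 0 between MH and CxWT, where 11.0%, 12.9%, 2.32%, 15.4% and 8.38% of all genes were called. The GC and length correction left 0 in MH vs. MWT, 0 in CxWT vs. MWT, 1 (down) between CxH and MWT and 1 between MH and CxWT, against 18.3%, 3.13%, 16.4% and 14.6% of all genes. The exact test with an assumed coefficient of variation of 0.2 called 3 in MH vs. MWT, 3 between CxH and MWT and 0 between MH and CxWT (17.7%, 21.7% and 10.9% of all genes). TMM factors gave 2 in CxH vs. CxWT, with Cacna1i added as up at 0.70, and 1 in MH vs. CxWT, as did DESeq2 size factors in the latter (20.3% and 14.7% of all genes). Both factors shifted the median of all genes by 0.11 (log2) in MH vs. CxWT. The T-type shares without length were 37.0%, 42.1%, 34.5% and 36.6% in CxH, CxWT, MH and MWT.

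Signs turned mostly for small ratios, though also for Cacna1i in CxWT vs. MWT, at 0.52 before. Cacna1b in CxH vs. CxWT became 0.013 with TMM and 0.0063 with DESeq2 factors, and Cacna1c -0.012 with column totals and -0.10 with the GC correction. The GC correction also turned Cacna1g in MH vs. MWT (-0.59), Cacna1a in CxH vs. MH (-0.00087), Cacna1i in CxWT vs. MWT (-0.11), and Cacna1b (-0.034) and Cacna1c (-0.021) in MH vs. CxWT. The cause was not tested. Of the other values of single members under other scalings or the GC correction, 164 kept direction and side of the thresholds, 17 lost a call and 2 gained one. Depth was not limiting for the members, whose lowest count was 813 reads, whereas variation between pools cannot be estimated from 1 library per condition.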

Other observations

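Markers of cell types that the report does not describe also differed between libraries. Microglia markers summed to 679 RPM in CxH and 315 in CxWT, and 363 in MH and 529 in MWT, with a median log2 ratio over 10 genes of 1.17 in CxH vs. CxWT (7 called up, against 9.46% of all genes) and -0.53 in MH vs. MWT (3 called down, against 12.7%). Endothelial markers had medians of 0.62 and -0.054 over 8 genes, astrocyte markers 0.076 and -0.39 over 10 genes, and GABA neuron markers 0.43 and 0.34 over 10 genes. Oligodendrocyte precursor markers (5 of 6 in the table) had medians of -0.26 and -0.060, and cerebellum markers, of which 4 of 10 were in the table, 0.21 and 1.20. The GABA neuron sums were 743 and 704 RPM in CxH and MH and 953 and 975 RPM in CxWT and MWT.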
